A study of Mus musculus with 10 samples.

Results

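Transcript isoform usage was compared between lung and ear fibroblast libraries of the mouse, that is, which of a gene's alternative transcripts its RNA was made of in each tissue. The readout was each transcript's share of the summed TPM of its gene, where TPM is a transcript's share of the library after correction for its length. A gene was kept where its summed TPM was at least 5 in all 10 libraries and at least 2 of its transcripts averaged at least 1 TPM. That left 4827 of 22594 genes, with 15180 transcripts averaging at least 1 TPM, all of which were tested. At the edge of the gene filter, Prkab2 and Sept6 were kept with a lowest library at 5.003 and 5.006 TPM, and Akap9 and Epb41 were left out at 4.999 and 4.994 TPM. Of the tested transcripts, 1853 are annotated as targets of nonsense-mediated decay and 3272 have incomplete models, and 2178 genes had exactly 2 tested transcripts.

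The libraries were made from cells described in the labels as mouse fibroblasts under a condition called post-mortem, with 2 lung libraries at 12 h and 2 at 0 h, and 3 ear libraries at 12 h and 3 at 0 h. The labels give no strain, age, sex or treatment, and do not say whether replicates came from separate animals, so every p measures the spread between these libraries only. The tissues were compared across both times, with time as a covariate. TPM keeps no record of reads, so the sequencing depth behind a share is unknown.

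Most mammalian genes make several transcripts, through alternative promoters that change the starting exon, exons that are included or skipped, and alternative ends. Splicing regulators bind the pre-mRNA near an exon and raise or lower its inclusion, and mesenchymal cells use this to switch cytoskeletal, adhesion and growth factor genes between cell-type-specific protein forms. Smooth muscle, for example, is known for its own exons in tropomyosin and alpha-actinin, and activated fibroblasts for fibronectin that includes the EIIIA exon.

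The labelled cell type was checked against its markers. Of the 13 fibroblast markers, 0 were below 0.5 TPM in every library of a tissue, and their summed levels were 3892 to 7283 TPM in lung and 12650 to 15943 TPM in ear. The lung libraries also held macrophage and smooth muscle transcripts. The 14 macrophage markers summed to 5254 to 16649 TPM in lung, highest in 12 h replicate 2, and to 25.6 to 54.6 TPM in ear, where Adgre1, Ptprc, Mrc1, C1qa, C1qb, C1qc and Cd74 were below 0.5 TPM in every library. The 9 smooth muscle and pericyte markers summed to 9080 to 17724 TPM in lung, highest in 12 h replicate 1, and to 206 to 2697 TPM in ear. Chondrocyte markers summed to 0.674 to 9.06 TPM in lung and 27.8 to 197 TPM in ear, and 6 of those 8 markers were below 0.5 TPM in every lung library. The 8 adipocyte markers summed to 60.7 to 237 TPM in lung, where 4 were below 0.5 TPM in every library, and to 168 to 2937 TPM in ear, highest in 0 h replicate 1. In bulk RNA, more cells of a type and more RNA per cell cannot be told apart, and a share mixes all cells that express the gene. The part of other cell types in the differences below was not tested.

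A small share of transcripts differed between the tissues. Limma on the log2 ratio of a transcript to the rest of its gene called 106 of 15180 transcripts at an adjusted p under 0.05 (0.698%), of which 61 held a higher share in lung (0.402%) and 45 a lower share (0.296%). At an unadjusted p under 0.05 there were 1707. The calls fell in 69 of 4827 genes (1.43%), and in 39 genes (0.808%) a called transcript differed by at least 10 percentage points of share. Of the 106, 24 were listed at equal TPM with another transcript of their gene and cannot be separated from it, and 15 are incomplete models. Shares of the 4 lung and 6 ear libraries did not overlap for 522 transcripts (3.44%), among them 101 of the 106 called. The median difference of a called transcript was 10.9 points without sign, with a range of 0.398 to 75.4 points, and the median SE over all tested transcripts was 2.16 points. Leaving out single libraries lowered the count of calls to between 46 and 71, of which 40 to 60 were among the 106. In all 10 such fits, 28 transcripts in 19 genes were called, and 17 of the 106 were called in none. Within a single time, with 2 lung and 3 ear libraries, 1 transcript was called at 12 h and 2 at 0 h, all outside the 69 genes. With the replicate number within each time as a block, 0 transcripts were called and 1384 had an unadjusted p under 0.05. Whether these numbers pair libraries is not known. The block fit left fewer residual degrees of freedom, and ear replicate 3 of each time had no lung library in its block. Its count of 0 therefore cannot decide whether the differences hold under pairing. By comparison, the summed TPM of the gene itself differed for 3957 of 13188 genes tested (30%), with 1677 higher in lung (12.7%) and 2280 lower (17.3%). Of the 4827 genes kept here, 1156 differed in summed TPM (23.9%).

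Of the 24 genes with the largest called differences and no overlap between tissues, 23 are shown library by library in the plot of shares, and 12 of their 23 leading transcripts were higher in lung. Differences are lung minus ear in percentage points of share ± SE, with time in the model, log2 fold changes are also given ± SE, and means as mean ± SD over 4 lung and 6 ear libraries. Transcripts carry their GENCODE vM21 names, which are only numbers within a gene. The 4 lung values are listed as 12 h replicates 1 and 2 and then 0 h replicates 1 and 2, and ear is given by its lowest, median and highest library.

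**Figure D1:**
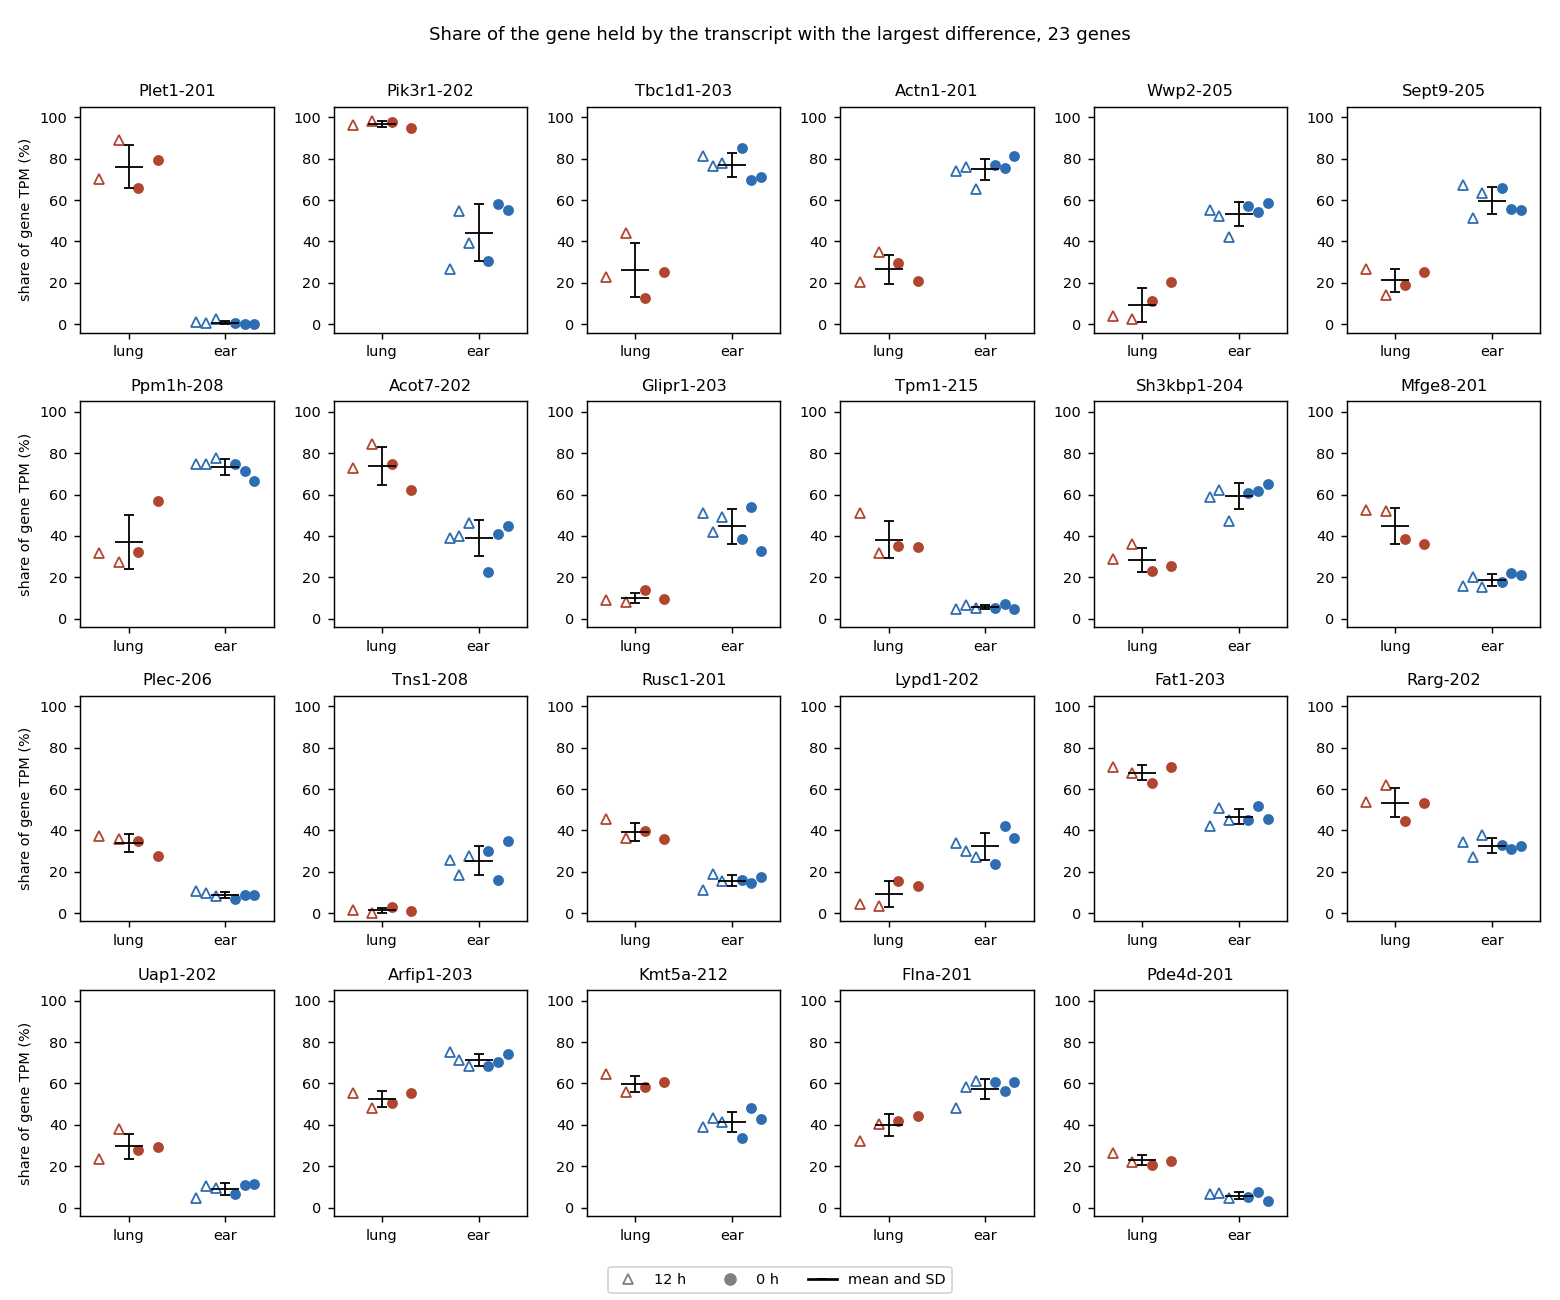
Share of the gene's TPM (percent, vertical axis) held by 1 transcript in each of 23 genes, with the 4 lung libraries left of the 6 ear libraries in each panel, open triangles for 12 h, filled circles for 0 h, and a bar for the mean and SD. In every panel the lung and ear points do not overlap, from Plet1-201, at 66.0% to 89.1% in lung and 0% to 2.45% in ear, to Pde4d-201, at 20.8% to 26.3% in lung and 3.09% to 7.53% in ear.

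Cytoskeletal and contractile genes held the largest number of calls of any list. Of 45 listed genes 29 were kept, and 7 of these (24.1%, against 1.43% of all genes kept) had a called transcript, namely Actn1, Cald1, Flna, Macf1, Mprip, Tpm1 and Tpm2. The median of the largest difference per gene was 3.08 points in the list and 2.91 points over all genes kept. This list and those below were chosen with earlier results of these data known. A rate of calls above that of all genes is therefore not independent of the choice of members.

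Actn1 encodes alpha-actinin 1, which crosslinks actin filaments and anchors them at adhesions. Its 2 transcripts differ by a pair of mutually exclusive exons that encode part of the calcium-binding EF-hand region, a 66-base exon in Actn1-202, known as the smooth muscle exon, and an 81-base exon in Actn1-201, the exon of nonmuscle cells. Both are shown from GENCODE vM21 transcripts because they carry the largest cytoskeletal difference, with the alternative exon in capitals between 12 bases of each neighbouring exon. They lie on the minus strand of GRCm38 at chr12:80170183-80170248 and chr12:80170686-80170766.
Actn1 66-base exon: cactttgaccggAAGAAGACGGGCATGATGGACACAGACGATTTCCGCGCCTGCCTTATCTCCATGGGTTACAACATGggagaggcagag
Actn1 81-base exon: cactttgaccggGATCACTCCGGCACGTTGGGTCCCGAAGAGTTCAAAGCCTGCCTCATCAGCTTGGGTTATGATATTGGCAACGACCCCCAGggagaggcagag
Transcripts with the 66-base exon made up 79.5%, 65.3%, 70.4% and 78.9% of Actn1 in lung, against a lowest value of 18.7%, a median of 24.3% and a highest of 34.4% in ear. All 4 lung libraries lay above all 6 ear libraries, and the major form was the 66-base form in lung and the 81-base form in ear. Actn1-201 fell by 48.4 ± 3.91 points in lung (adjusted p = 0.00466) and was called in all 10 fits that left out a library. In TPM, Actn1-202 averaged 288 ± 38.3 in lung and 39.1 ± 10.7 in ear, while Actn1-201 averaged 104 ± 30.1 and 118 ± 32.8. Summed Actn1 was higher in lung (log2 fold change 1.35 ± 0.18, adjusted p = 0.000359).

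Tpm1 encodes tropomyosin 1, the coiled-coil protein that lies along actin filaments and controls their contact with myosin. Its exons 2a and 2b are mutually exclusive 126-base exons, and 2a is the exon known from smooth muscle. They are printed because the inclusion of each did not overlap between the tissues, again on the minus strand, at chr9:67048124-67048249 for 2a and chr9:67047786-67047911 for 2b, with the exon in capitals.
Tpm1 exon 2a: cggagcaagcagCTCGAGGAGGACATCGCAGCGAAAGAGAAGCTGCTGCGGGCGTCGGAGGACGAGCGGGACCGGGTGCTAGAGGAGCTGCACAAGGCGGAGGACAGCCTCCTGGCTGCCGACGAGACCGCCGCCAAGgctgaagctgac
Tpm1 exon 2b: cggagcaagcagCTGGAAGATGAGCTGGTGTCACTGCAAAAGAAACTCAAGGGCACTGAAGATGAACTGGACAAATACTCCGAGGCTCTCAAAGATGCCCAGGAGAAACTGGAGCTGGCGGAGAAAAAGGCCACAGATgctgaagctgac
Exon 2a was held by 55.0%, 35.6%, 40.4% and 41.4% of the transcripts that span it in lung, against 7.08%, 9.34% and 12.9% (lowest, median and highest) in ear. Every lung library was above every ear library, and lung 12 h replicate 1, which also held the most smooth muscle marker RNA, was the highest. That library was also highest for the Actn1 66-base exon, at 79.5%. In ear, Actn1 inclusion was highest in 12 h replicate 3, at 34.4%, with a marker sum of 572 TPM. Ear 0 h replicate 2 and 12 h replicate 2, with the highest sums of 2653 and 2697 TPM, were at 24.5% and 24.1%. A link with these markers was not tested. Most of the exon 2a form was Tpm1-215, at 51.3%, 31.7%, 34.9% and 34.9% of the gene in lung and 4.60%, 5.17% and 6.93% in ear. It rose by 32.6 ± 3.65 points (adjusted p = 0.00225, called in all 10 fits without a library), and in TPM it averaged 1019 ± 564 in lung and 27.9 ± 14.6 in ear. Tpm1-216, a long form with exon 2b, averaged 47.1 ± 6.50% in lung and 50.4 ± 15.3% in ear and was not called.

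A short Tpm1 form was lower in lung. Tpm1-211, whose coding sequence of 744 bases starts from an internal promoter and lacks exons 2a and 2b, was at 1.23%, 2.56%, 1.90% and 4.26% in lung and at 11.7%, 24.4% and 36.8% in ear. It did not overlap between the tissues and fell by 21.7 ± 6.31 points (adjusted p = 0.0469), but it was called in none of the 10 fits that left out a library. Summed Tpm1 was 2540 ± 726 TPM in lung and 478 ± 164 TPM in ear (log2 fold change 2.44 ± 0.27, adjusted p = 0.000102).

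Flna encodes filamin A, which joins actin filaments into networks and links them to integrins. Its 24-base exon, on the minus strand at chrX:74232967-74232990, separates the long and short coding sequences of 7941 and 7917 bases and is shown in capitals.
Flna 24-base exon: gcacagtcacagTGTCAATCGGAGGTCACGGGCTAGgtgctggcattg
Transcripts with this exon made up 37.9%, 49.1%, 50.2% and 50.4% in lung and 65.1%, 69.1% and 73.2% in ear. All lung libraries were below all ear libraries. The exon-skipping transcripts Flna-202 and Flna-203, which are listed at the same TPM in every library and cannot be separated, each rose by 11.0 ± 1.20 points (adjusted p = 0.00639, called in all 10 fits without a library), to 26.3 ± 3.01% in lung against 15.3 ± 1.37% in ear. Flna-201, the long form, fell by 17.8 ± 2.93 points (adjusted p = 0.0457), a call that was kept only in the fit without ear 12 h replicate 1, with -15.8 to -19.3 points over the 10 fits.

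Plec encodes plectin, which ties intermediate filaments to actin and to adhesions and whose alternative starting exons are known to direct it to different sites in the cell. Plec-206 held 37.3%, 36.1%, 34.8% and 27.8% of Plec in lung and 6.61%, 8.74% and 10.6% in ear. The groups did not overlap, the difference was 25.2 ± 1.55 points (adjusted p = 0.000922), and it was called without any 1 library. Summed Plec TPM did not pass the test (log2 fold change 0.09 ± 0.18), so the promoter-specific form differed while the summed level of the gene was not shown to.

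Tns1 encodes tensin 1, an adaptor of focal and fibrillar adhesions. The share of Tns1-208, a form of 5469 coding bases, was 1.55%, 0.0951%, 2.77% and 0.833% in lung and 15.9%, 26.8% and 34.7% in ear. It fell by 24.1 ± 3.80 points (adjusted p = 0.00639, 10 of 10 fits without a library), while summed Tns1 was higher in lung (log2 fold change 2.20 ± 0.23). Sept9 encodes septin 9, a GTP-binding filament protein that associates with actin and microtubules, and its transcripts with different starting exons encode different amino ends. Sept9-205 held 26.6%, 14.4%, 18.8% and 25.1% in lung and 51.6%, 59.6% and 67.1% in ear, and fell by 38.6 ± 4.26 points (adjusted p = 0.0148). The call held in 9 of 10 fits without a library and was lost without lung 0 h replicate 1 (-37.7 points, adjusted p = 0.0571). Sept9-201 averaged 41.0 ± 6.41% in lung and 27.6 ± 6.62% in ear.

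The remaining cytoskeletal calls were smaller or less stable. Macf1-216, an incomplete model of the microtubule-actin crosslinker Macf1, fell by 10.7 ± 0.92 points (17.9 ± 2.42% in lung, 28.6 ± 1.24% in ear, adjusted p = 0.00606) and was called in all 10 fits without a library. Mprip, which targets myosin phosphatase to actin, had a rise of 9.98 ± 1.62 points in Mprip-204 (37.2 ± 3.14% in lung, 27.2 ± 2.62% in ear, adjusted p = 0.0457). The tropomyosin 2 transcript Tpm2-202 fell by 8.94 ± 2.44 points (1.43 ± 0.345% in lung, 10.4 ± 5.19% in ear, adjusted p = 0.0256). Cald1-210, an incomplete model of the actin-binding caldesmon, rose by 2.59 ± 0.62 points (3.78 ± 1.57% in lung, 1.19 ± 0.272% in ear, adjusted p = 0.0443). These last 3 calls were lost in most fits without a library. Mprip-204 was called only without ear 12 h replicate 2 (9.27 to 10.9 points over the 10 fits), Tpm2-202 only without ear 0 h or ear 12 h replicate 2 (-7.82 to -10.2) and Cald1-210 only without lung 12 h replicate 2 (1.82 to 3.04).

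Among matrix and adhesion genes, 3 of 26 kept genes were called (11.5%, against 1.43% of all genes kept), namely Fn1, Ltbp1 and Mfge8, with a median largest difference of 3.26 points against 2.91. Fn1 encodes fibronectin, the fibril-forming adhesion glycoprotein, whose EIIIA exon encodes an extra domain found in the cell-made and not the plasma protein. The 270-base EIIIA exon lies on the minus strand at chr1:71603660-71603929 and is printed in capitals because its inclusion did not overlap between the tissues.
Fn1 EIIIA exon: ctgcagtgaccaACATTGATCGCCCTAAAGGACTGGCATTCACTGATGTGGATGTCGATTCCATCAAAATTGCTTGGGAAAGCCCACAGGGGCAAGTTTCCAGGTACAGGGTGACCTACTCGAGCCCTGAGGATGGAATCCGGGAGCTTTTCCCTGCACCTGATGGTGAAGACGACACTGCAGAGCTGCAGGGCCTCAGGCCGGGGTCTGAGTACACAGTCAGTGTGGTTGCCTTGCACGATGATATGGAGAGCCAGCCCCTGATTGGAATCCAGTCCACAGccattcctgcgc
EIIIA was held by 48.5%, 49.7%, 56.1% and 52.8% of the transcripts that span it in lung, against 16.7%, 26.3% and 30.4% (lowest, median and highest) in ear. All lung libraries lay above all ear libraries. The 273-base EIIIB exon, the other extra domain, was held by 22.8 ± 2.83% in lung and 13.6 ± 3.83% in ear, and there the libraries of the tissues overlapped. In single transcripts, Fn1-214, with EIIIA and without EIIIB, held 24.1%, 20.4%, 25.6% and 21.9% in lung and 4.53%, 8.62% and 10.6% in ear.

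The rise of Fn1-214 was 14.9 ± 1.5 points (adjusted p = 0.0256) and the groups did not overlap, but it was called in only 3 of 10 fits without a library, those without ear 0 h replicate 1, ear 0 h replicate 2 or lung 12 h replicate 2 (13.8 to 16.0 points over the 10 fits). Fn1-217 and Fn1-216 fell to 3.07 ± 0.525% and 0.878 ± 0.193% in lung, against 9.95 ± 1.24% and 3.59 ± 0.532% in ear (adjusted p = 0.00225 for each, called in all 10 fits). Fn1-203, the most abundant full-length form, averaged 39.0 ± 4.09% in lung and 53.6 ± 4.81% in ear. Summed Fn1 was lower in lung, at 303 ± 78.1 TPM against 836 ± 254 TPM (log2 fold change -1.44 ± 0.24, adjusted p = 0.00154), and in TPM Fn1-214 averaged 69.1 ± 15.3 in lung and 66.3 ± 21.4 in ear.

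Mfge8 encodes lactadherin, a secreted bridge between phosphatidylserine and integrins, and its long form carries a proline- and threonine-rich segment encoded by a 111-base exon. The exon lies on the minus strand at chr7:79143278-79143388 and is in capitals.
Mfge8 111-base exon: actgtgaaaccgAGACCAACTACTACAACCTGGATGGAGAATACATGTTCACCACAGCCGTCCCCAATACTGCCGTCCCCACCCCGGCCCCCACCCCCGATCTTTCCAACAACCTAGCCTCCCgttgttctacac
Mfge8-201, the long form, held 52.7% and 52.1% in lung at 12 h and 38.5% and 35.9% at 0 h, against 15.1%, 18.9% and 22.0% in ear. Every lung library was above every ear library, and the 12 h lung libraries were above the 0 h ones. It rose by 26.1 ± 3.74 points (adjusted p = 0.0256), with 35.4 points within 12 h and 16.8 points within 0 h. The difference between the times was not called (interaction unadjusted p = 0.00157, adjusted p = 0.671). The tissue call was kept only without ear 0 h replicate 2 or lung 0 h replicate 2, with 23.9 to 28.8 points over the 10 fits.

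Ltbp1 encodes a matrix protein that holds latent TGF-beta, and Ltbp1-201, which starts from its own exon, rose by 6.84 ± 0.65 points (8.40 ± 1.37% in lung, 1.56 ± 0.566% in ear, adjusted p = 0.0148). It was lost without lung 0 h replicate 1, lung 0 h replicate 2 or lung 12 h replicate 1, at 6.92, 6.54 and 6.37 points. Fat1, which is not on the list of matrix and adhesion genes, encodes a giant atypical cadherin. A 36-base exon in the region that encodes its cytoplasmic end, on the plus strand at chr8:45049842-45049877 and in capitals below, was included more often in lung.
Fat1 36-base exon: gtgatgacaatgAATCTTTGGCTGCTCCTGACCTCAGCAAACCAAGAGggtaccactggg
Inclusion was 73.4%, 71.1%, 70.0% and 73.8% in lung and 44.7%, 51.2% and 54.2% in ear, with no overlap. Fat1-203, which holds it, rose by 21.3 ± 2.56 points (adjusted p = 0.0148), and the call was lost without lung 0 h replicate 2 (20.2 points) or lung 12 h replicate 1 (20.4 points). The skipping transcripts Fat1-201 and Fat1-205, listed at equal TPM, fell by 10.7 ± 0.97 points each and were called in all 10 fits.

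**Figure D2:**
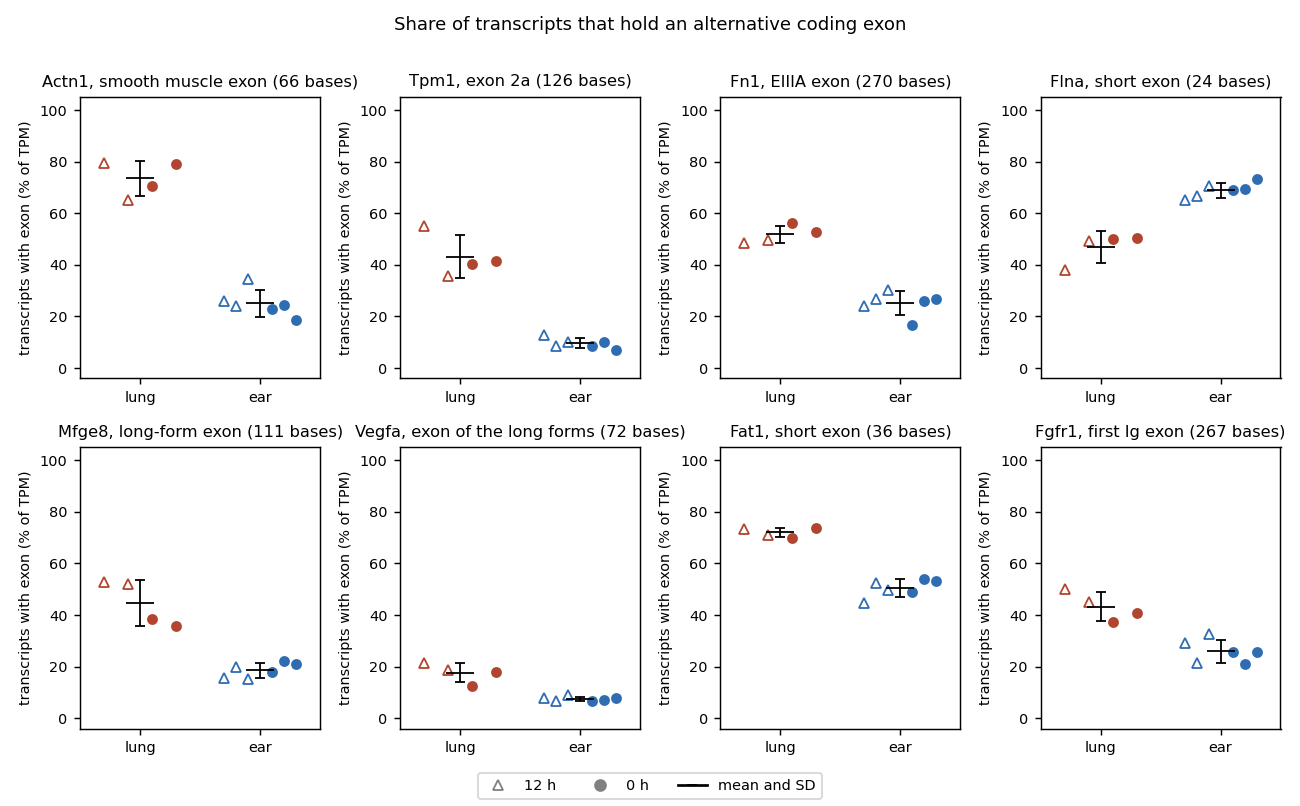
Percent of transcript TPM that holds an alternative coding exon, among transcripts that span it (vertical axis), in 4 lung libraries on the left and 6 ear libraries on the right of each panel, with open triangles for 12 h, filled circles for 0 h and a bar for mean and SD. Each panel shows the exon with the largest difference in a direction set for its gene, higher in lung for 7 genes and lower for Flna. The directions and the lack of overlap between lung and ear in the 8 panels therefore follow in part from that choice. The Actn1 exon is at 73.5% in lung against 25.1% in ear, and the Flna exon at 46.9% against 69.0%.

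Growth factors and receptors had 3 called genes of 27 kept (11.1%, against 1.43% of all genes kept), Axl, Il1rl1 and Vegfa, with a median largest difference of 2.39 points against 2.91. Vegfa encodes the main growth factor of blood vessels, and its forms differ in a stretch that binds heparin and holds the protein on matrix. The 72-base exon below, on the minus strand at chr17:46022277-46022348, is the exon of the longest heparin-binding forms and is in capitals.
Vegfa 72-base exon: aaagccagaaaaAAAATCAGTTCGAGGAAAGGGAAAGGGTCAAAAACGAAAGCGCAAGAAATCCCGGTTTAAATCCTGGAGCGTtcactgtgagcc
It was held by 21.6%, 18.8%, 12.5% and 18% of the transcripts that span it in lung and by 6.73%, 7.41% and 8.90% in ear. Each lung library was above each ear library. Vegfa-207 and Vegfa-213, which hold it and are listed at equal TPM, rose by 4.66 ± 0.47 points each (7.64 ± 1.24% in lung, 2.98 ± 0.542% in ear, adjusted p = 0.0162). The call was lost without lung 0 h replicate 2, lung 12 h replicate 1, lung 12 h replicate 2 or ear 12 h replicate 2, at 4.31 to 4.72 points. Vegfa-201, the form of 438 coding bases that lacks the heparin-binding exons and was the most abundant in both tissues, averaged 54.8 ± 3.57% in lung and 64.2 ± 2.83% in ear and was not called (-9.43 points, 95% interval -13.6 to -5.23, adjusted p = 0.0637).

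The receptor calls were small. Axl-204, an incomplete model of the Axl receptor tyrosine kinase, rose by 3.05 ± 0.47 points (6.50 ± 0.909% in lung, 3.45 ± 0.508% in ear, adjusted p = 0.0414), and was called only without ear 0 h replicate 1 (2.60 to 3.28 points over the 10 fits). Il1rl1 encodes the interleukin-33 receptor ST2, and its summed TPM was 17.2 ± 11.8 in lung and 1677 ± 526 in ear (log2 fold change -6.74 ± 0.34). An incomplete Il1rl1 model of 375 bases, Il1rl1-204, held 63.5 ± 6.25% in lung and 68.1 ± 2.03% in ear. Most of the gene's TPM could therefore not be given to a full-length form. The full-length receptor transcripts Il1rl1-201 and Il1rl1-202, at equal TPM, averaged 1.97 ± 0.880% in lung and 1.58 ± 0.211% in ear, and their shares overlapped. Their call (adjusted p = 0.0256) came from the log ratio with a pseudocount of 0.5 TPM, above their lung mean of 0.305 TPM, and with a pseudocount of 0.1 it was lost. The difference in share was 0.398 points with a 95% interval of -0.459 to 1.26, and -0.0265 without lung 0 h replicate 2.

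The largest differences of all lay outside these lists. Plet1 encodes a placenta-expressed membrane protein, and its 2 transcripts differ in their last exon (the gene's transcript Plet1-201 lies at chr9:50494525-50505482). Plet1-201 held 70.2%, 89.1%, 66.0% and 79.4% in lung and 0%, 0.619% and 2.45% in ear. The tissues did not overlap, and the major transcript differed. It rose by 75.4 ± 4.14 points (adjusted p = 0.00165, 10 of 10 fits without a library). Plet1 was low in ear, at 6.95 ± 0.984 TPM, against 45.1 ± 19.6 TPM in lung, and Plet1-202 averaged 9.25 ± 1.17 TPM in lung and 6.89 ± 0.949 TPM in ear. Lung 12 h replicate 2, the library with the most macrophage marker RNA, had the highest Plet1-201 share, and the next highest was in 0 h replicate 2, the lung library with the least.

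Pik3r1 encodes regulatory subunits of phosphoinositide 3-kinase. Pik3r1-202, with 2172 coding bases, is the p85alpha form, and Pik3r1-201, with 1362 coding bases and an internal promoter, is the p55alpha form, which lacks the SH3 and BH domains. The p85alpha transcript held 96.2%, 98.2%, 97.9% and 95.1% of Pik3r1 in lung and 26.9%, 47.0% and 58.3% in ear. Lung was uniform and ear was spread widely, with no overlap. The lowest ear shares, 26.9% in 12 h replicate 1 and 30.4% in 0 h replicate 1, were in the ear libraries with the highest adipocyte marker sums, 561 and 2937 TPM. Between tissues the order was not kept. Lung 12 h replicate 2, at a share of 98.2%, had a sum of 237 TPM, against 168 TPM in ear 0 h replicate 2, at 58.3%. A link between the share and these markers was not tested. The rise was 52.7 ± 7.34 points (adjusted p = 0.00681) and was called in all 10 fits. In TPM, Pik3r1-202 averaged 20.2 ± 3.70 in lung and 28.1 ± 7.16 in ear, and Pik3r1-201 averaged 0.526 ± 0.370 in lung and 37.0 ± 31.5 in ear. Summed Pik3r1 was lower in lung (log2 fold change -1.61 ± 0.37, adjusted p = 0.00904).

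Wwp2 encodes a ubiquitin ligase of the HECT type. Wwp2-205 starts inside the gene (chr8:107545012-107557213) and encodes only the carboxy-terminal part with the catalytic domain, and in mouse cartilage this form is known to be transcribed together with the microRNA miR-140 of the same gene. It held 3.90%, 2.33%, 11.3% and 20.4% in lung and 42.3%, 54.7% and 58.7% in ear. All lung libraries were lower, by 43.9 ± 3.16 points (adjusted p = 0.0120, 10 of 10 fits). The full-length Wwp2-201 averaged 22.0 ± 8.57 TPM in lung and 20.3 ± 3.81 TPM in ear, while Wwp2-205 averaged 2.26 ± 1.83 TPM in lung and 24.6 ± 7.69 TPM in ear. The chondrocyte marker sums given above were lower in lung than in ear, without overlap. Within ear, the highest Wwp2-205 share was in 0 h replicate 3, with a marker sum of 40.5 TPM. Ear 0 h replicate 1, with the highest sum of 197 TPM, was at 57.1%. The lowest share and the lowest sum, 27.8 TPM, were both in ear 12 h replicate 3. A link between the 2 was not tested.

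Tbc1d1 encodes a Rab GTPase-activating protein that controls traffic of the glucose transporter GLUT4, and its long form, with extra exons, is known from skeletal muscle. Tbc1d1-203, the form of 3099 coding bases, held 22.8%, 44.1%, 12.6% and 25.1% in lung and 69.8%, 77.3% and 85.0% in ear. No library crossed over, and the fall was 50.9 ± 5.63 points (adjusted p = 0.0206). The call was kept in only 4 of 10 fits, those without lung 0 h replicate 1, lung 12 h replicate 2, ear 0 h replicate 1 or ear 0 h replicate 2 (-47.2 to -56.3 points over the 10 fits). In TPM, Tbc1d1-203 averaged 7.46 ± 4.16 in lung and 5.55 ± 0.784 in ear, so its level was not lower in lung. Summed Tbc1d1 was higher in lung, at 29.3 ± 7.67 TPM against 7.21 ± 0.997 TPM (log2 fold change 1.86 ± 0.17). Tbc1d1-202 and Tbc1d1-204, at equal TPM, averaged 12.5 ± 2.14% in lung and were listed at 0 in all 6 ear libraries. Skeletal muscle marker sums were 49.5 to 123 TPM in lung and 12.9 to 282 TPM in ear.

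Further signalling genes followed. Pde4d encodes a phosphodiesterase that breaks down cyclic AMP, with many starting exons that give long and short enzymes. Pde4d-201 held 26.3%, 21.9%, 20.8% and 22.4% in lung and 3.09%, 6.06% and 7.53% in ear. With no overlap, it rose by 17.1 ± 1.24 points (adjusted p = 0.00581, 10 of 10 fits), and summed Pde4d TPM did not pass the test (log2 fold change -0.17 ± 0.24). Sh3kbp1 encodes the endocytic adaptor CIN85, and its short form Sh3kbp1-204 held 28.7%, 36.2%, 23.0% and 25.7% in lung and 47.5%, 61.2% and 65.1% in ear. It fell by 31.0 ± 4.13 points (adjusted p = 0.0209), called only without lung 12 h replicate 2 or ear 12 h replicate 3 (-28.8 to -34.1 points over the 10 fits). Ppm1h, a protein phosphatase, had a fall of 36.3 ± 5.89 points in Ppm1h-208 (37.1 ± 13.2% in lung, 73.4 ± 3.95% in ear, adjusted p = 0.0457), which was called only without lung 0 h replicate 2 (-33.2 to -43.3 points over the 10 fits).

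Rarg encodes retinoic acid receptor gamma, whose forms gamma1 and gamma2 start from different promoters and differ at the amino end. Rarg-202, the gamma2 form, held 53.8%, 61.9%, 44.7% and 53.5% in lung and 27.4%, 32.7% and 37.7% in ear. The tissues did not overlap, and it rose by 20.9 ± 3.13 points (adjusted p = 0.0311), called only without lung 0 h replicate 1 or ear 12 h replicate 2 (18.4 to 23.4 points). Transcription factors as a list had 1 called gene of 25 kept (4%, against 1.43% of all genes kept), with a median largest difference of 4.39 points against 2.91. That gene was Nfix, of the nuclear factor I family, whose transcript Nfix-203 fell by 5.45 ± 0.59 points (9.36 ± 1.59% in lung, 14.8 ± 1.27% in ear, adjusted p = 0.0466), called only without lung 12 h replicate 2 (-5.11 to -5.78 points). Kmt5a, a methyltransferase of histone H4, had a rise of 18.6 ± 3.08 points in Kmt5a-212 (59.9 ± 3.77% in lung, 41.3 ± 4.83% in ear, adjusted p = 0.0466), called only without ear 0 h replicate 2 (16.8 to 20.2 points). With transcripts that are not annotated as protein-coding left out, the Kmt5a-212 difference was 0.499 points and not called.

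Metabolic, trafficking and secreted-protein genes completed this group. Acot7 encodes an acyl-CoA thioesterase, and Acot7-202 rose by 34.7 ± 5.34 points (73.7 ± 9.13% in lung, 39.0 ± 8.57% in ear, adjusted p = 0.0466). Uap1 makes UDP-N-acetylglucosamine, and Uap1-202, which lacks the alternative exon of the other forms, rose by 20.8 ± 2.93 points (29.7 ± 5.99% in lung, 8.95 ± 2.72% in ear, adjusted p = 0.0396). Neither was called in any fit without a library (31.8 to 37.6 points for Acot7-202, 17.6 to 23.1 for Uap1-202). Uap1 was the only called gene of 27 kept in the metabolism, survival and stress list (3.70%, against 1.43% of all genes kept), where the median largest difference was 1.22 points against 2.91. Arfip1 encodes arfaptin 1, a membrane-curving protein of the Golgi, and Arfip1-203, which includes a 96-base exon, held 55.4%, 48.0%, 50.7% and 55.6% in lung and 68.3%, 71.0% and 75.4% in ear. It fell by 19.0 ± 2.24 points (adjusted p = 0.0153) and lost its call without lung 0 h replicate 1 (-18.3 points).

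Glipr1-203, an incomplete model of the secreted or membrane CAP-family gene Glipr1, fell by 34.5 ± 4.56 points (10.1 ± 2.58% in lung, 44.6 ± 8.27% in ear, adjusted p = 0.00716, 10 of 10 fits), while summed Glipr1 was higher in lung (log2 fold change 2.81 ± 0.20). Rusc1-201, of an adaptor with RUN and SH3 domains, rose by 23.7 ± 2.37 points (39.3 ± 4.48% in lung, 15.6 ± 2.65% in ear, adjusted p = 0.0170), and was lost without lung 0 h replicate 1 (23.5 points), lung 0 h replicate 2 (24.9) or ear 12 h replicate 3 (23.7). Lypd1-202, of a Ly6-family protein, fell by 23.1 ± 3.75 points (9.11 ± 6.28% in lung, 32.2 ± 6.73% in ear, adjusted p = 0.0443), called only without ear 0 h replicate 1 (-21.5 to -25.8 points). In the list of genes with known epithelial and mesenchymal splice forms, 1 of 25 kept genes was called (4%, against 1.43% of all genes kept), with a median largest difference of 3.39 points against 2.91. That was Fnbp1, a membrane-bending F-BAR protein, whose transcript Fnbp1-209 rose by 14.7 ± 3.03 points (15.9 ± 7.21% in lung, 1.23 ± 2.75% in ear, adjusted p = 0.0443), called only without ear 12 h replicate 1 (11.3 to 17.0 points).

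A few further transcripts were picked after their values were seen, because they were called in all 10 fits without a library. Vps29 encodes a subunit of retromer, which retrieves membrane proteins from endosomes, and a 12-base exon at its start, on the plus strand at chr5:122356794-122356805 and in capitals below, is shown because the called transcript is the only one that holds it.
Vps29 12-base exon: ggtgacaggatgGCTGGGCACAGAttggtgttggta
Vps29-204, which holds it, was at 16.2%, 16.2%, 16.9% and 16.6% in lung and 24.5%, 27.3% and 29.7% in ear. The lung libraries lay within 1 point of each other and below every ear library, and the fall was 10.7 ± 0.86 points (adjusted p = 0.00173). Map4k4-209, of a kinase that acts on cell migration, rose by 7.71 ± 0.28 points (9.28 ± 0.587% in lung, 1.57 ± 0.306% in ear, adjusted p = 0.000922). Myo1c-203, a form of the membrane myosin Myo1c with its own start, fell by 11.3 ± 2.15 points (0.704 ± 0.589% in lung, 12.0 ± 4.60% in ear, adjusted p = 0.00530), and Ak1-201, of adenylate kinase 1, fell by 16.7 ± 1.94 points (18.7 ± 2.26% in lung, 35.4 ± 3.63% in ear, adjusted p = 0.00856).

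Minor forms of Lsp1 ordered the 4 lung libraries as the macrophage marker sums did. Lsp1-201 and Lsp1-205, of the leukocyte-specific protein Lsp1 and listed at equal TPM, held 5.73%, 13.4%, 4.22% and 2.53% each in lung and 0.272%, 0.432% and 0.522% in ear (adjusted p = 0.0466). The highest lung value was in 12 h replicate 2, where the macrophage marker sum was highest, and the lowest in 0 h replicate 2, where that sum was lowest. Both transcripts lost the call in every fit without a library (3.88 to 7.11 points), and they were singled out after their values were seen. The match in order over 4 libraries was not tested.

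The genes to be named whatever their result included several well-known switches that were not called. Cd44, the hyaluronan receptor, was present almost wholly as the standard form Cd44-203, at 97.6 ± 0.585% in lung and 97.8 ± 0.478% in ear, a difference of -0.197 points with a 95% interval of -0.962 to 0.569. Pkm, which encodes pyruvate kinase, had its transcript Pkm-202 at 3.75 ± 1.47% in lung and 2.83 ± 0.326% in ear (0.920 points, interval -0.518 to 2.36). An incomplete Pkm model of 356 bases, Pkm-208, held 78.3 ± 0.966% in lung and 79.2 ± 0.895% in ear, so most of the gene's TPM could not be given to either full-length form. The interval for Ctnnd1-202, of the cadherin partner p120-catenin, was -2.21 to 4.24 points around 1.01.

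Wider intervals left larger differences possible for other genes. Lmna-201, the lamin A transcript, differed by -7.66 points (interval -19.6 to 4.28), Tpm2-203 by 12.0 points (1.83 to 22.1, adjusted p = 0.290) and Cald1-203 by -7.68 points (-15.2 to -0.134, adjusted p = 0.283). The incomplete model Il1rl1-204 differed by -4.58 points (-9.08 to -0.0789, adjusted p = 0.312). Fgfr1-203, of fibroblast growth factor receptor 1, averaged 15.6 ± 2.57% in lung and 23.0 ± 2.30% in ear (-7.42 points, interval -10.8 to -4.04, adjusted p = 0.0823). With incomplete models left out, Fgfr1-203 differed by -15.3 points (adjusted p = 0.0318) and Tpm2-203 by 13.1 points (adjusted p = 0.0321), and both were called. The 267-base exon that encodes the outermost immunoglobulin loop of that receptor was held by 50.1%, 45.1%, 37.2% and 40.7% of the transcripts that span it in lung and by 21.2%, 25.6% and 32.7% in ear, without overlap. Myl6, Vcl and Bmp1 have 1 transcript in the table, and Itga6 and Fbln1 fell below 5 TPM in at least 1 library, so none of these 5 genes was kept.

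The called genes were also described by how their most raised and most lowered tested transcripts differ, which the size of a difference can influence. The 2 transcripts had different first exons in 43 of 69 called genes (62.3%) and in 2107 of 4827 genes kept (43.7%). Different last exons were seen in 17 of 69 (24.6%) and 2105 of 4827 (43.6%). A transcript annotated for nonsense-mediated decay was involved in 2 of 69 called genes (2.90%) and in 1112 of all genes kept (23.0%), and the coding sequence differed in all 69 and in 4262 (88.3%). The most abundant transcript on average was not the same in lung and ear for 23 of 69 called genes (33.3%) and for 276 of 4827 (5.72%). Summed gene TPM passed its own test in 34 of 69 called genes (49.3%), against 23.9% of all genes kept.

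**Figure D3:**
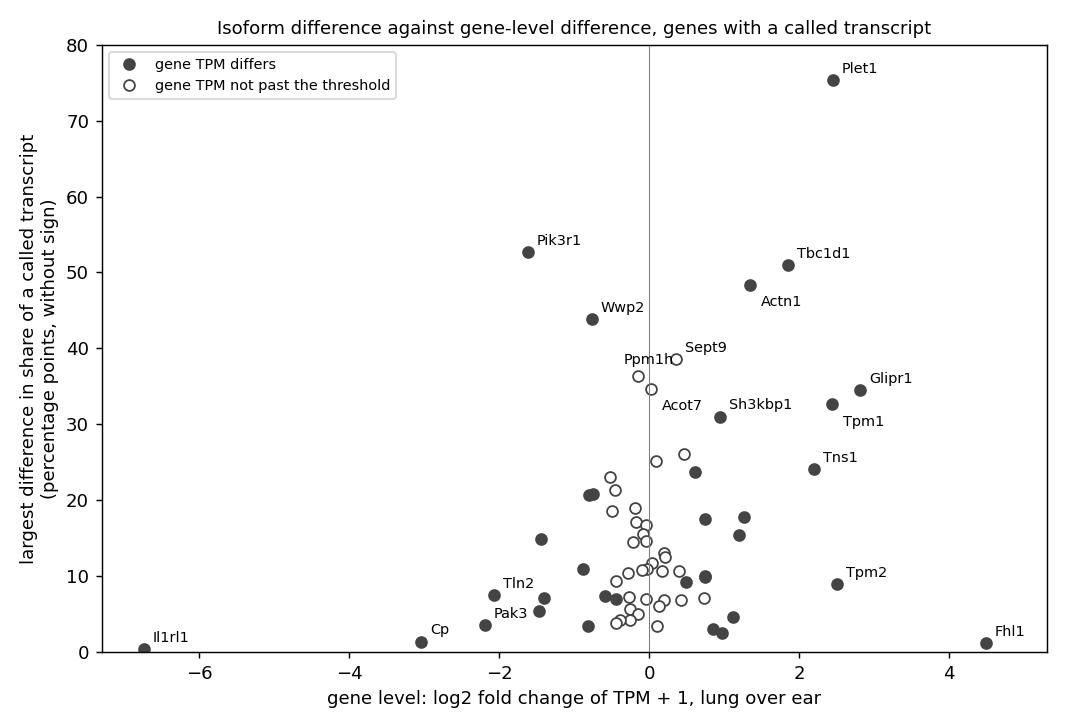
Largest difference in share of a called transcript (percentage points without sign, vertical axis) against the log2 fold change of the gene's TPM + 1, lung over ear (horizontal axis), for the 69 genes with a called transcript, filled where the gene's TPM also differed. The 34 filled and the open points spread over both sides of 0, with Plet1 highest at 75.4 points and Il1rl1 farthest left at -6.74.

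Isoform shares showed no called difference between the times. At an adjusted p under 0.05, limma called 0 of 15180 transcripts for 12 h against 0 h (0%) and 584 at an unadjusted p under 0.05 (3.85%). For a tissue difference that depended on time it called 0 (0%) and 800 unadjusted (5.27%). Each of the 23 leading transcripts had the same sign within 12 h and within 0 h. Their selection for no overlap between the tissues fixed this in advance, so it says nothing further about the times.

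Splicing regulators differed in level about as often as genes in general. Of 60 tested, 17 passed the gene-level test (28.3%, against 30% of all genes), 7 higher and 10 lower in lung, and the median log2 fold change was -0.13 in the list and -0.11 over all genes. Rbpms, an RNA-binding protein that drives smooth muscle splicing of genes such as Tpm1 and Actn1 in cultured rat cells, was at 144, 88.1, 162 and 135 TPM in lung and 29.7, 35.8 and 59.4 TPM in ear. All lung libraries were above all ear libraries (log2 fold change 1.76 ± 0.22, adjusted p = 0.000237). Its relative Rbpms2 was at 4.51, 8.09, 8.17 and 6.58 TPM in lung and 0.844, 1.38 and 3.22 TPM in ear (1.57 ± 0.26, adjusted p = 0.00136).

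Khdrbs3, a STAR-family splicing factor, stood at 30.2, 27.8, 34.3 and 33.8 TPM in lung and 9.63, 10.1 and 14.0 TPM in ear (1.42 ± 0.15, adjusted p = 6.95e-05). Rbm47 was at 4.17, 13.6, 6.25 and 2.78 TPM in lung and 0.138, 0.239 and 0.694 TPM in ear (2.39 ± 0.32), highest in the lung library with the most macrophage RNA. Esrp2, a regulator of epithelial splicing, was at 3.92, 1.97, 1.78 and 2.32 TPM in lung and 0.278, 0.460 and 0.552 TPM in ear (1.25 ± 0.17). Only low levels of epithelial markers were found beside it, with sums of 11.5 to 60.9 TPM in lung and 7.74 to 13.0 TPM in ear. Rbm20, known for splicing of titin in muscle, was lower, at 0.0347, 0, 0.0258 and 0.0249 TPM in lung and 0.953, 1.05 and 1.37 TPM in ear (-1.04 ± 0.13). Each of these 6 was called in all 10 fits without a library.

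Mbnl1, a muscleblind factor, was lower in lung (-0.71 ± 0.16, adjusted p = 0.00717), and Ptbp1, a repressor of many tissue-specific exons, did not pass the test (-0.07 ± 0.16). Of 20 tested factors of 3′ end processing, 3 were lower in lung and 0 higher (15%, against 30% of all genes), namely Cpsf6 (-0.40 ± 0.13), Cpsf7 (-0.38 ± 0.13) and Nudt21 (-0.39 ± 0.12), subunits of cleavage factor I, and each lost its call in at least 7 of 10 fits without a library (-0.32 to -0.47, -0.31 to -0.43 and -0.33 to -0.47 over the fits, in the order named). As isoform members, 0 of 51 splicing regulators and 0 of 13 end-processing factors kept had a called transcript (median largest differences 2.89 and 4.11 points, against 2.91).

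**Figure D4:**
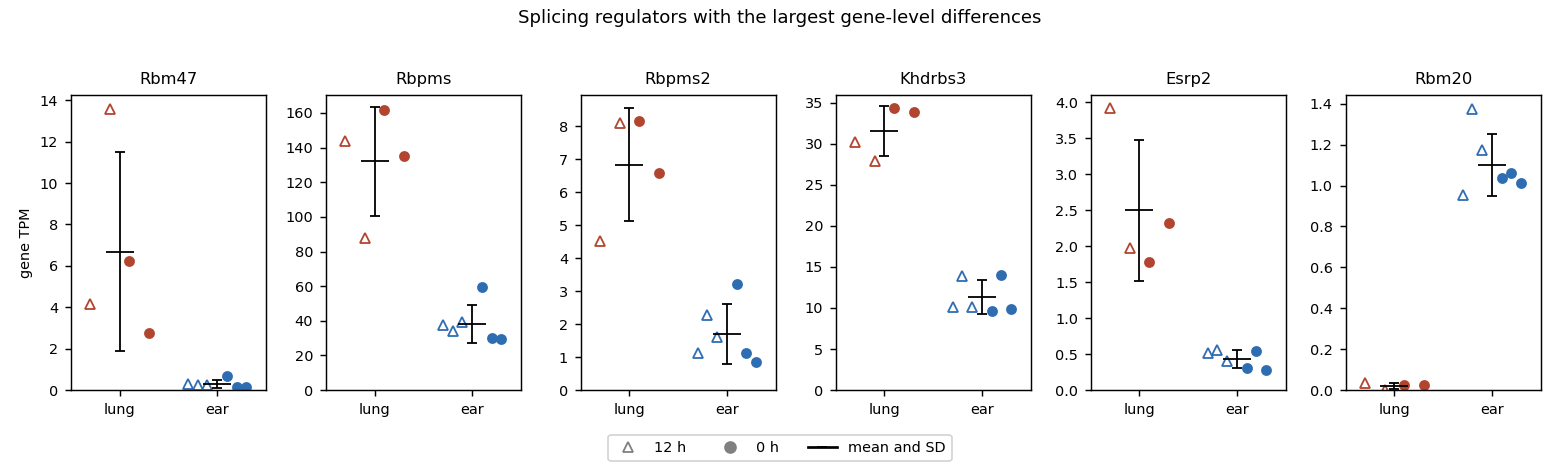
Gene TPM (vertical axis, linear, from 0) of 6 splicing regulators in 4 lung libraries on the left and 6 ear libraries on the right of each panel, with open triangles for 12 h, filled circles for 0 h and a bar for mean and SD. Rbm47, Rbpms, Rbpms2, Khdrbs3 and Esrp2 are higher in lung and Rbm20 is lower, with no overlap between the tissues in any panel.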

How the data were processed

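RNA was sequenced from 10 libraries, and the authors deposited TPM for 61440 transcripts. These came, per the submitters' processing notes, from kallisto 0.44.1 with build GRCm38, and the transcript set of the index is not given in the sources used here. TPM keeps no read counts, so depth is unknown and no counting interval was computed.

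Transcripts were matched to GENCODE vM21 by Ensembl ID without its version. Of 61440, 60503 matched, and 937, with 0.508% to 0.590% of TPM, were left out. The version was the same for 56128 matched transcripts, and it differed for Actn1-201. Of those listed, 88.4% are protein-coding, 5805 are annotated for nonsense-mediated decay and 70 as retained introns, so retained introns were hardly measured. Reads shared by overlapping transcripts are divided by kallisto's model: 4534 tested transcripts (29.9%) in 1746 genes were at equal TPM with another of their gene in all libraries (to 3 significant digits).

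Shares were tested with limma 3.58.1 in R 4.3.3 on log2((transcript TPM + 0.5)/(TPM of the other transcripts of the gene + 0.5)), with tissue and time in the model and eBayes with a trend on the smaller of the 2 mean levels. The fit had 7 residual and 0.753 prior degrees of freedom. P values were two-sided and adjusted by the Benjamini-Hochberg method over all 15180 transcripts, with a threshold of 0.05. Sizes are coefficients of the share itself, with 95% intervals from the 7 residual degrees of freedom. Gene-level tests used log2(TPM + 1) and genes that reached 1 TPM in 2 or more libraries, so fold changes understate low genes. Exon inclusion is the TPM of transcripts with an exon over that of all transcripts spanning it, given as values with no test. The fits were tested on simulated data.

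The text names the 24 genes with the largest called difference and no overlap between tissues, up to 4 further called genes per list, up to 6 called regulators, and a set of known switches whatever their result. Of the 24, 1 is not reported here. The members, lists and rules were chosen with earlier results of these data known. Alternatives covered pseudocounts, other transforms, filters, transcript classes, variance settings, the replicate number as a block, each time alone and each library left out. Sequences were copied from GENCODE vM21 transcripts on GRCm38.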

Additional observations from a re-analysis of the deposited data

Results flagged for a closer look

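Among 100 sets of 4 lung or 6 ear libraries behind the named transcripts and regulators, 12 held a library that stood apart from the others of its tissue, by a gap to its nearest neighbour that was large against the range of the set. Chance gives about 1 in 20 such sets. In lung, the highest library was 0 h replicate 2 for Ppm1h-208, at a share of 56.7%. Lung 12 h replicate 1 was highest for Tpm1-215, at 51.3%, and for Cald1-210, at 6.13%.

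In ear, 0 h replicate 1 was lowest for Acot7-202, at a share of 22.5%, and highest for Lmna-201, at 52.7%. It was also highest for the gene level of Rbm47, at 0.694 TPM, and of Rbpms, at 59.4 TPM. Ear 12 h replicate 1 was lowest for Flna-201, at 48.4%, and highest for Fnbp1-209, at 6.83%. Ear 12 h replicate 2 was highest for Mprip-204, at 32.3%, ear 12 h replicate 3 was lowest for Sh3kbp1-204, at 47.5%, and ear 0 h replicate 3 was lowest for Cd44-203, at 96.9%.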

How the results depend on the processing

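Against 106 transcripts called in 69 genes, 266 in 151 were called when a gene needed only a mean of 5 TPM, and 82 to 145 transcripts in 53 to 95 genes under the other transforms, filters, transcript classes and variance settings. Within a single time, 1 transcript in 1 gene was called at 12 h and 2 in 1 gene at 0 h, from fits with 2 lung and 3 ear libraries. Neither gene was among the 69. Leaving out 1 library gave 46 to 71 transcripts in 30 to 48 genes; lung 12 h replicate 2 alone kept the count within 1.5 times (71 transcripts). The interaction with time gave 1 call with a pseudocount of 0.1, and 0 to 2 without a library. The gene-level count of 3957 stayed within 1.5 times (2647 to 4228).

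No pairing by replicate number was seen: same-numbered lung and ear libraries of a time correlated at -0.26 to -0.01 in their deviations from group means. Not every library correlated best with its own number. With 2 lung libraries per time, their deviations mirror each other, so this check is weak and cannot exclude pairing. The fit with the replicate block left fewer residual degrees of freedom than the main fit. With the replicate block, 0 transcripts in 0 genes were called, as were 0 genes of each list that had any (7 cytoskeletal, 3 matrix, 3 growth factor, 1 each of transcription factors, epithelial and mesenchymal events and metabolism), and 0 of 3 factors of 3′ end processing. Within either time these 6 lists also had 0. Without 1 library the counts were 4 to 6 cytoskeletal, 1 to 3 matrix, 1 to 2 growth factor, 0 to 1 transcription factor, 0 to 1 epithelial and mesenchymal, 0 metabolic, 0 to 1 splicing regulator and 0 to 2 end-processing genes. Transcription factors had 2 with the untransformed share, a filter of 10 TPM or a mean of 5 TPM, 4 with protein-coding transcripts only, and 0 with equal coding sequences or equal TPM summed, without the trend or with robust variances. Epithelial and mesenchymal events had 0 with a pseudocount of 0.1, the untransformed share, its arcsine, the filter of 10 TPM or a transcript mean of 5 TPM, which also left metabolism at 0. Splicing regulators had 1 where the gene mean was 5 TPM, the transcript mean 0.1 TPM, or only protein-coding or only complete models were used. Without 1 library the difference of Il1rl1-202 ran from -0.0265 points, reversed without lung 0 h replicate 2, to 0.728 points. The cause of these shifts was not tested.

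Leaving out incomplete models, which called Fgfr1-203 and Tpm2-203, and summing transcripts at equal TPM were settings chosen after seeing the data. With 7 residual degrees of freedom and unknown depth, small differences in minor transcripts could not be resolved.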
